A study of Drosophila melanogaster with 3 samples.

Results

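Cytosolic ribosomal proteins form the large and small subunits of the ribosomes that translate the mRNAs of the cytoplasm, and they are encoded in the nucleus by about as many genes as there are proteins. In animals their mRNAs start with a tract of pyrimidines through which the TOR pathway controls their translation as a group, and flies with a single working copy of many of these genes develop slowly, the Minute phenotype. The syncytial fly embryo, in which nuclei divide in a shared cytoplasm, receives its ribosomes and many of these mRNAs from the mother. The genes described here were those whose symbol starts with RpL, RpS or RpLP, once the annotation of the array had been updated to current symbols. The rule took 49 probes of 35 genes, each with a value on all 3 arrays, out of 8177 named genes and 10183 features (genes, or probes without a single gene symbol) tested in all.

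Laser-wounded Drosophila embryos were compared with unwounded ones to ask which transcripts change while a single large cell repairs its cortex. Both conditions carried the actin reporter sGMCA, were collected over 0-1 h, were freed of the chorion by hand and lay in halocarbon oil, and both were frozen 30 min after wounding or after the same wait without wounding. The sources used here name no further genotype and no number of embryos in each RNA pool. The paper's methods state several wounds to each wounded embryo and, for embryos in general, a collection of 30 min rather than 0-1 h. Of each condition 30 ug of total RNA was labelled, with Cy3 for wounded and Cy5 for unwounded embryos, and the pair was applied to an array spotted with fly cDNA clones, 1 array for each of the experiments 3, 4 and 5. Values are log2 ratios of wounded over unwounded. The table does not state this direction, which is likely because 12 of 12 tested genes that the study's text names as raised had means above 0 and 12 of 12 named as lowered, RpL23 left aside, had means below 0. The opposite reading would turn every direction given here. RpL23 is itself on the study's list of lowered genes, which was chosen on these samples, and its fall here is therefore no independent evidence. The paper's methods state 4 replicates of each condition at 30 min, where the table used here held the 3 arrays of experiments 3, 4 and 5. The dyes were not exchanged on any array, so a gene-specific dye effect and an effect of wounding cannot be told apart.

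Of the 35 ribosomal protein genes, 1 fell in wounded embryos, none rose and 34 did not pass the test. The gene that fell was RpL23, a protein on the face of the large subunit that meets the small subunit, at 2.14-fold lower. A gene was called where limma's p, adjusted by Benjamini-Hochberg over all 10183 features, was under 0.05 and the change at least 1.5-fold (0.585 on the log2 scale). By this rule 1.68% of all features were called lower and 0.648% higher, so that 1 fall among 35 genes lay close to the background. At an unadjusted p under 0.05, 4 members were lower and 0 higher, against 14.9% and 10.1% of all features. The median of the 35 mean ratios was -0.0009, against 0.0014 for all features. Loess normalization, done by the authors, sets the bulk of the ratios on an array near 0, so that a change shared by most transcripts could not have been seen. RNA came from whole embryos, and fewer responding embryos or nuclei cannot be told apart from less RNA in each.

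**Figure D1:**
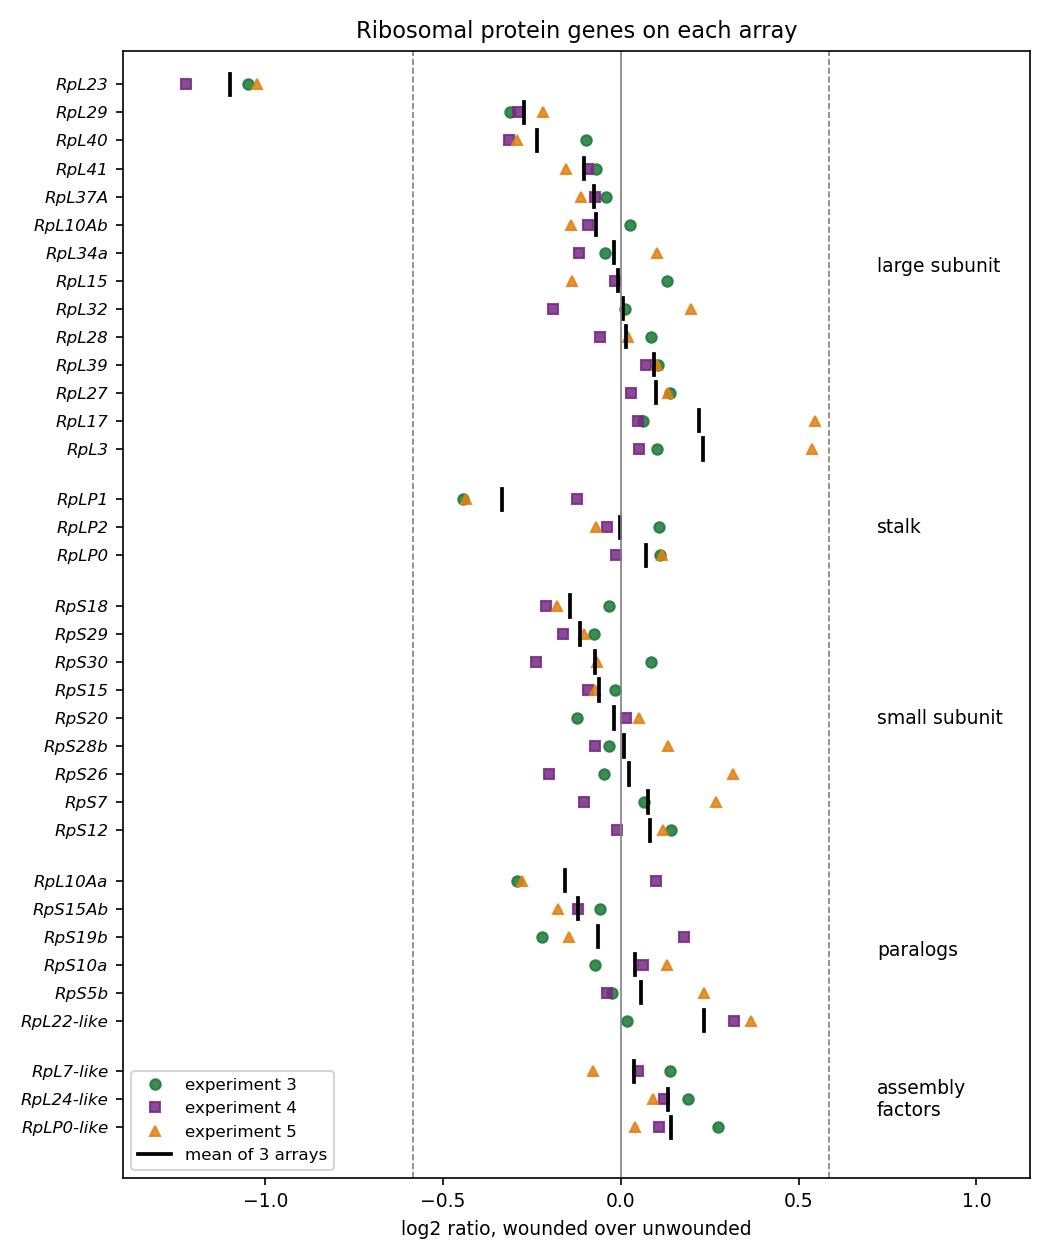
Log2 ratio of wounded over unwounded (horizontal axis) of each of the 35 ribosomal protein genes on the arrays of experiments 3, 4 and 5 (symbols), with the mean of the 3 arrays (black bars) and dashed lines at a 1.5-fold change. RpL23 lies beyond the lower line on every array, between -1.22 and -1.02, and no other mean lies below -0.33 or above 0.23.

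RpL23 had -1.05, -1.22 and -1.02 in experiments 3, 4 and 5, with a mean of -1.10 ± 0.11 (SD, n = 3; limma adjusted p = 0.0365; 95% interval -1.29 to -0.91). The lowest value of any other member on the same arrays was -0.45, -0.32 and -0.43, so that RpL23 stood apart from the rest of the family on each of them. Its distance from the median of the other 34 members was -1.05, -1.17 and -1.05. Among all 10183 features RpL23 ranked number 24 from the lowest mean, and by size of p it ranked number 6. It was among 124 features that shared the smallest adjusted p. RpL23 lost its call when any 1 of the arrays was left out (adjusted p = 0.147, 0.0597 and 0.18 without experiment 3, 4 and 5), when all arrays were given the same spread (adjusted p = 0.0577), and when tested against a 1.5-fold change rather than 0 (adjusted p = 0.76), while its mean stayed between -1.14 and -1.04. In each of these settings no feature of the array was called, CG9752, Nacalpha and the other called genes below included.

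RpL23 was measured by a single cDNA clone, RH29296, and no other probe was named for it. In NCBI RefSeq's Release 6 gene table its neighbours among protein-coding genes are CG13531 and inaD, which encodes a scaffold protein of photoreceptors, and inaD overlaps RpL23. CG13531 had 0.07 ± 0.05 and inaD -0.12 ± 0.07 (n = 3 each; limma adjusted p = 0.496 and 0.325). Neither neighbour passed the test, and both lay far above RpL23 on every array.

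**Figure D2:**
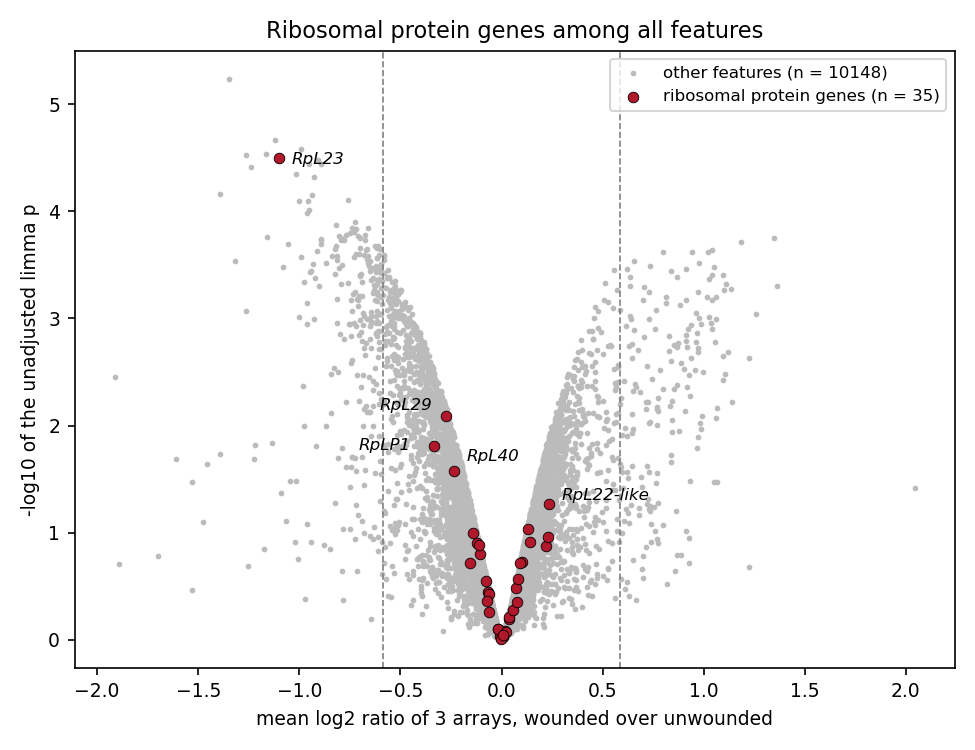
Mean log2 ratio of the 3 arrays (horizontal axis) against -log10 of the unadjusted limma p (vertical axis) for the 35 ribosomal protein genes (red) and all 10148 other features (grey), with dashed lines at a 1.5-fold change. RpL23 lies at -1.10 among the lowest features, and the other members lie between -0.33 and 0.23.

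Of the large subunit proteins outside the stalk, 14 were measured, without paralogs. Their median was -0.01, and 6 means were above 0 and 8 below. RpL29 had -0.31, -0.29 and -0.22 in experiments 3, 4 and 5, or -0.27 ± 0.05 (limma adjusted p = 0.0904). RpL40, which is made as a fusion of ubiquitin with the ribosomal protein, had -0.10, -0.32 and -0.29, or -0.24 ± 0.12 (adjusted p = 0.149). Both genes were below 0 on every array without passing the threshold, and their fold changes were 1.21 and 1.18. RpL41, one of the shortest known proteins, had -0.10 ± 0.04 and the zinc-binding protein gene RpL37A -0.07 ± 0.04, also with the same sign on all arrays (adjusted p = 0.353 and 0.48).

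RpL3, which helps to shape the peptidyl transferase centre, had 0.10, 0.05 and 0.54 in experiments 3, 4 and 5. RpL17, which lines the exit tunnel of the nascent chain, had 0.06, 0.05 and 0.54. In both genes the value of experiment 5 was far above the other two, and their means of 0.23 ± 0.27 and 0.22 ± 0.28 did not pass (limma adjusted p = 0.292 and 0.325). RpL39, another protein of the exit tunnel, was nearly constant with 0.11, 0.07 and 0.10, or 0.09 ± 0.02, and RpL27 had 0.10 ± 0.06 (adjusted p = 0.389 and 0.385). The remaining genes, RpL10Ab of the mobile stalk at the tRNA exit, RpL34a, RpL15, RpL32 and RpL28, had means from -0.07 to 0.02 with values on both sides of 0.

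RpL32, known for long as rp49, served as a reference gene in the study's quantitative PCR of knockdown embryos. It had 0.01, -0.19 and 0.20 in experiments 3, 4 and 5, or 0.01 ± 0.19 (limma adjusted p = 0.973; 95% interval -0.24 to 0.25). The arrays thus lay on both sides of 0. Its primers, from the study's supplementary table, are shown because they define the amplicon used as the reference, and they are given from 5′ to 3′ in lower case, with no part marked. RpL32 lies on chromosome arm 3R.
RpL32-F: atgctaagctgtcgcacaaatg
RpL32-R: gttcgatccgtaaccgatgt

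The stalk of the large subunit, formed by RpLP0, RpLP1 and RpLP2, recruits the GTPases of translation. RpLP1 had -0.45, -0.12 and -0.43 in experiments 3, 4 and 5, or -0.33 ± 0.18, which was the lowest mean after RpL23 (limma adjusted p = 0.119; 95% interval -0.57 to -0.10). RpLP0, the base of the stalk, had 0.11, -0.01 and 0.12, or 0.07 ± 0.07. RpLP2, the partner of RpLP1 in the stalk, had 0.11, -0.04 and -0.07, or -0.0009 ± 0.10. RpLP1 was below RpLP0 and RpLP2 on every array, a difference that was not tested, and none of the stalk genes was called.

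Of the small subunit, 9 members outside the paralogs were measured and none was called. They had means from -0.14 to 0.08 with a median of -0.02, none had an unadjusted p under 0.05, and 4 means were above 0 and 5 below. RpS18, in the head of the subunit, had -0.03, -0.21 and -0.18 in experiments 3, 4 and 5, or -0.14 ± 0.09. RpS15, also of the head, had -0.06 ± 0.04, and the zinc-binding protein gene RpS29 had -0.11 ± 0.04. These 3 genes were below 0 on each array, and their limma adjusted p-values were 0.28, 0.572 and 0.322. RpS12, through which flies sense a shortage of ribosomal proteins in cell competition, had 0.14, -0.01 and 0.12, or 0.08 ± 0.08. RpS26, found where the mRNA leaves the ribosome, was the most variable with -0.05, -0.20 and 0.32, or 0.02 ± 0.27. RpS7 had 0.08 ± 0.19, RpS30, made as a fusion with a ubiquitin-like protein, had -0.07 ± 0.16, RpS20 had -0.02 ± 0.09 and RpS28b had 0.0086 ± 0.11. In 8 of these 9 genes the value of experiment 4 was below 0, as it was for 23 of all 35 members, against 18 in experiment 3 and 17 in experiment 5. Over all 10183 features 5399 were below 0 in experiment 4, against 5019 in experiment 3 and 4921 in experiment 5.

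Paralogs are second copies of a ribosomal protein gene, in Drosophila often used mainly in the germ line. The 6 that were measured, RpL10Aa, RpL22-like, RpS5b, RpS10a, RpS15Ab and RpS19b, had a median of -0.01, and none was called. RpL22-like, used in the germ line, had 0.02, 0.32 and 0.37 in experiments 3, 4 and 5, or 0.23 ± 0.19, the highest mean of the family (limma adjusted p = 0.208). RpS5b, which acts in the ovary, had -0.02, -0.04 and 0.23, or 0.06 ± 0.15, and RpS10a had 0.04 ± 0.10. RpS19b, also of the germ line, had -0.22, 0.18 and -0.15, or -0.06 ± 0.21, so that its arrays fell on both sides of 0. RpS15Ab had -0.12 ± 0.06, with all 3 arrays below 0 (adjusted p = 0.313). Both copies were measured for RpL10A alone, where RpL10Aa had -0.29, 0.10 and -0.28 and RpL10Ab had 0.03, -0.09 and -0.14. The copies differed in sign in experiments 3 and 4, and neither was called.

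RpL24-like, RpL7-like and RpLP0-like carry ribosomal protein names, but the proteins they correspond to in yeast are assembly factors that hold the place of a ribosomal protein in the immature large subunit. RpLP0-like had 0.27, 0.11 and 0.04 in experiments 3, 4 and 5, or 0.14 ± 0.12, and RpL24-like had 0.19, 0.12 and 0.09, or 0.13 ± 0.05. These values were above 0 on every array without passing (limma adjusted p = 0.31 and 0.27). RpL7-like had 0.14, 0.05 and -0.08, or 0.04 ± 0.11.

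The SD of the mean ratios was 0.226 over the 35 genes, against 0.257 over all features. Much of the family's spread came from RpL23, without which its SD was 0.133, a value that cannot be set against that of all features, which kept their extremes. Means within 0.2 of 0 were found for 28 of 35 members, or 80.0%, against 69.8% of all features. The SD of a gene over the arrays had a median of 0.109 in the family and 0.127 over all features. It was 0.134 for the 23 members with 1 probe and 0.0542 for the 12 members averaged over several probes, so that the lower value of the family went with the averaged genes. For 34 of the 35 genes the unadjusted 95% interval of the mean lay within a 1.5-fold change in either direction, which held for 84.6% of all features. The same sign on all arrays was seen for 17 of 35 members, or 48.6%, against 50.3% of all features. These shares describe the genes on the same arrays, and no test of the difference was made.

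The order of the members was shared between experiments about as far as that of all features, or less. Spearman's rho over the 35 genes was 0.443 for experiments 3 and 4, 0.490 for 3 and 5, and 0.383 for 4 and 5, against 0.448, 0.562 and 0.390 over all features. Pearson's r over the 35 genes was 0.737 for experiments 3 and 4, 0.733 for 3 and 5, and 0.679 for the pair of 4 and 5. Without RpL23 these values were 0.278, 0.507 and 0.368 over 34 genes, against 0.390, 0.498 and 0.315 over all features. The high values of r for the whole family thus rested on RpL23. Genes are not independent replicates and share the arrays and their normalization, and the correlations are a description.

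For 12 of the 35 genes more than 1 probe was averaged, and the distance between the probe means ranged from 0.0177 for RpS15 to 0.296 for RpL29, with a median of 0.132. Over the 1301 named genes with several probes the median distance was 0.109. The signs of the probe means differed for RpL28 and RpS20. RpL28 had 3 probes. Clone LD41083 had -0.09, 0.11 and -0.27 in experiments 3, 4 and 5, clone RE31839 had 0.32, -0.15 and 0.12, and clone RE52852 had 0.02, -0.14 and 0.21. For RpS20 clone RE38972 had -0.23, -0.17 and 0.14 and clone RH47995 had -0.02, 0.20 and -0.04. Each of these 5 probes had values on both sides of 0, and none was called. Some clones were spotted more than once on the array. For 384 such clones the median distance between the means of their probes was 0.149, which is larger than the means of most members of the family. Among the members, the RpS15Ab clone and its dupe differed by 0.133, with means of -0.19 and -0.05, and an RpL39 clone and its ReAmp by 0.0615.

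RpL29 was the gene with the largest distance. Its clone RE40409 had -0.60, -0.39 and -0.27 in experiments 3, 4 and 5, or -0.42 ± 0.17, and clone RH58777 had -0.03, -0.19 and -0.16, or -0.13 ± 0.09. As features of their own the probes had limma adjusted p-values of 0.0839 and 0.324. In the gene table RpL29 overlaps CG9752, which was itself called lower, with -0.51, -0.66 and -0.89, or -0.68 ± 0.19 (adjusted p = 0.0403). Whether transcripts of CG9752 bound to a clone of RpL29 was not tested. For RpL40 the clones had -0.30 ± 0.16 and -0.17 ± 0.09, both below 0.

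**Figure D3:**
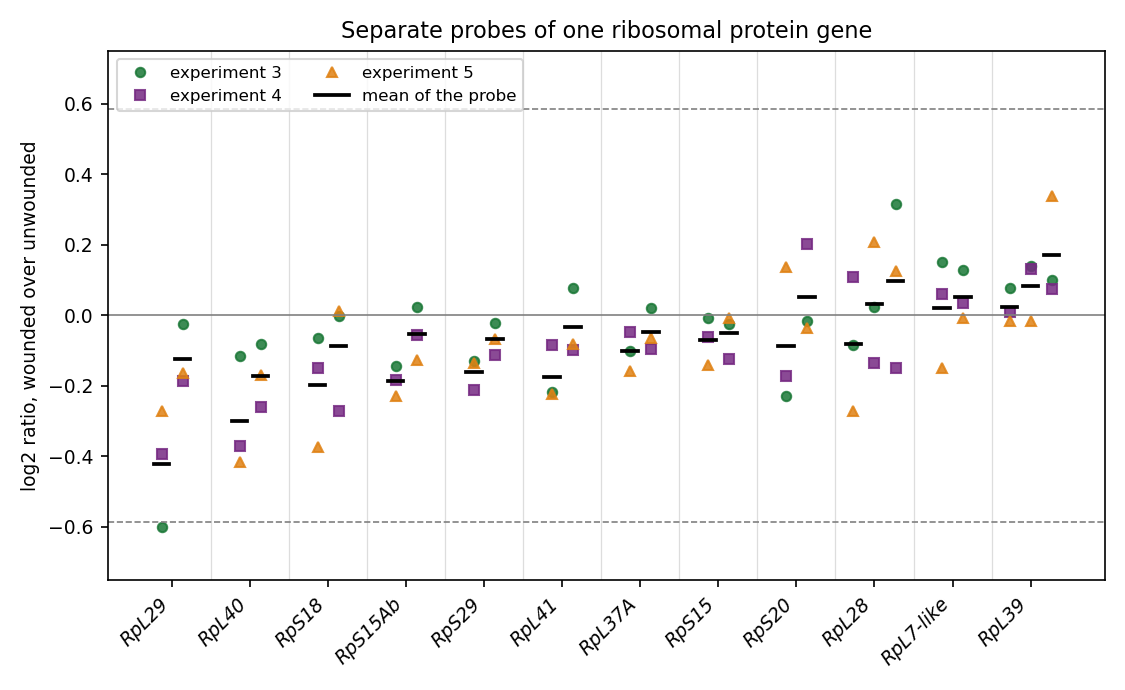
Log2 ratio of wounded over unwounded (vertical axis) of each probe of the 12 ribosomal protein genes with several probes, on the arrays of experiments 3, 4 and 5 (symbols), with the mean of each probe (black bars) and dashed lines at a 1.5-fold change. The probes of RpL29 are the farthest apart, with means of -0.42 and -0.13, and those of RpL28 and RpS20 lie on both sides of 0.

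The annotation assigned a further 11 probes to several genes, 1 of them a ribosomal protein gene, and these were not counted as members. Their means ranged from -0.29 to 0.21 with a median of 0.06, and none was called. They were the sole source for RpS27A, the small subunit counterpart of RpL40, made as a fusion with ubiquitin. A probe shared by RpS27A, Not1 and Ip259 had -0.05, 0.13 and -0.95, where experiment 5 stood far from the others, while the other probes of RpS27A had means of 0.11 and 0.08. Of 92 genes in the RefSeq table that the symbol rule matches, 56 had no probe named for them in the annotation used and were not analysed here. They are not all unmeasured. The study's supplementary clone table assigns clones that are unnamed in this annotation to some of them, RpL10, RpS3 and RpS6 included, and since the members were chosen by the annotation alone, such clones may stand among the unnamed features.

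Other parts of the translation machinery were described for comparison, from lists chosen for their roles with earlier results of these data known. Nacalpha, named below, is among the lowered genes that the study lists from these samples, so its fall is no independent evidence. Over all features 1.68% were called lower and 0.648% higher, the shares to set beside the calls of each list. Mitochondrial ribosomal protein genes had 1 rise and 1 fall among 63 members, with a median of -0.03. At an unadjusted limma p under 0.05, 13 of the 63 were lower and 2 higher, against 14.9% and 10.1% of all features. mRpS34 had 0.96, 0.59 and 1.10 in experiments 3, 4 and 5, or 0.88 ± 0.27 (limma adjusted p = 0.038), and mRpL38 had -0.59, -0.92 and -0.62, or -0.71 ± 0.18 (adjusted p = 0.0369). Elongation factors and genes that receive the nascent chain had 2 falls and no rise among 14, with a median of -0.16. The falls were those of Nacalpha, a subunit of the complex that binds chains as they leave the ribosome (-1.09, -1.41 and -1.21, or -1.24 ± 0.16; adjusted p = 0.0365), and Sec61beta of the translocation channel (-0.65 ± 0.22; adjusted p = 0.0456). The other Sec61 genes of the list, Sec61alpha and Sec61gamma, had 0.11 ± 0.22 and -0.25 ± 0.16, and bic had -0.15 ± 0.13. None of them was called, so the falls are those of single genes. At an unadjusted p under 0.05, 6 of the 14 genes were lower and 1 higher, where 14.9% and 10.1% of all features were. Of the 22 genes on this list, 8 were not tested. The only elongation factor genes tested from it, eEF5, eEF1delta and eEF1alpha2, had -0.16 ± 0.13, 0.08 ± 0.12 and -0.04 ± 0.17, and none passed. Elongation factors as a class were thus not covered.

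Of 53 ribosome assembly genes listed, 39 were tested. Among these 1 fell, none rose and 38 did not pass, with a median of 0.09, where 1.68% of all features were called lower and 0.648% higher. Ns3, a GTPase related to nucleostemin, had -0.82, -0.82 and -0.39, or -0.68 ± 0.25 (limma adjusted p = 0.0489). At an unadjusted p under 0.05, 7 of the 39 assembly genes were lower and 8 higher, against the same 14.9% and 10.1% of all features. Of 26 listed regulators of ribosomal protein genes and of their mRNAs, 19 were tested. None of the 19 was called in limma, and their median was -0.06. Thor, an eIF4E binding protein that the study names among its most raised genes, was not among these 19. At an unadjusted p under 0.05, 3 of the 19 were lower and 3 higher, against these same shares of 14.9% and 10.1%. The smallest p-values were those of RagC-D, a GTPase that activates TOR, and Larp4B, with -0.50 ± 0.19 and -0.42 ± 0.14 (adjusted p = 0.0613 and 0.0648). S6k, the kinase of ribosomal protein S6 downstream of TOR, had a mean of -0.11. Against these lists the cytosolic ribosomal proteins had 1 called gene of 35 and a median nearest to 0. The differences between lists were not tested.

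**Figure D4:**
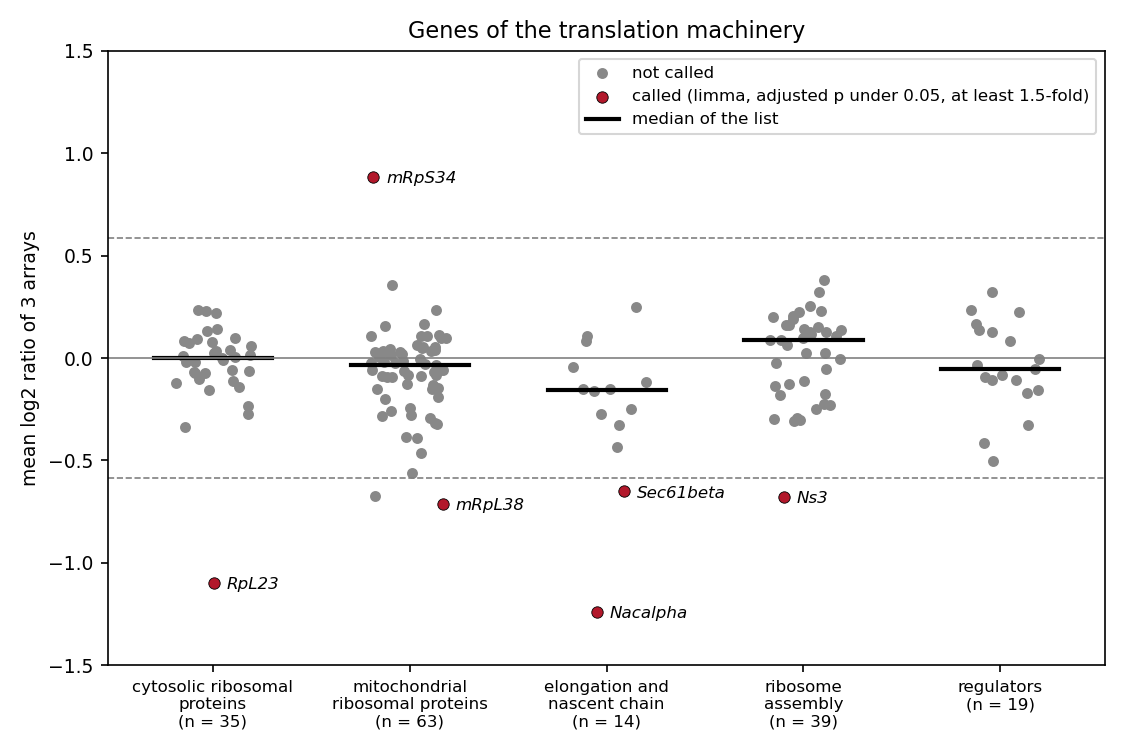
Mean log2 ratio of wounded over unwounded of single genes (points, spread sideways for visibility) in cytosolic ribosomal proteins and 4 comparison lists, with the median of each list (black bars), called genes in red and dashed lines at a 1.5-fold change. RpL23 at -1.10 stands apart from the other cytosolic ribosomal proteins, and the medians run from -0.16 for elongation and nascent chain genes to 0.09 for ribosome assembly genes.

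Most early zygotic genes tested were higher in wounded embryos, and the maternal RNAs that were called were all lower. These lists were chosen with earlier results of these data known. They may hold genes that the study already named as changed on these samples, so their counts are no independent evidence. Of 18 tested early zygotic genes 11 were called higher and none lower, with a median of 0.90, against 0.648% and 1.68% of all features. Of 17 maternal RNAs 3 were called lower and none higher, against 1.68% and 0.648% of all features, with a median of -0.04 and 7 means above 0. Of 20 markers of later tissues 1 was called lower and none higher, against the same shares, with a median of -0.09. Ratios give no level, so the presence of a tissue could not be read from them. The early zygotic median was 1.06, 0.60 and 1.07 in experiments 3, 4 and 5, where that of the ribosomal proteins was -0.02, -0.06 and 0.02, and the part of embryo stage in the fall of RpL23 was not tested.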

How the data were processed

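The deposited table held 1 log2 ratio per probe and array for 12144 probes. The authors filtered dim and questionable spots, took log2 ratios and loess normalized each array in limma; no spot brightness was used here, and precision is limited by the number of arrays. Probes were named through the platform annotation, updated with RefSeq's Release 6 gene table; 9917 had 1 symbol, 625 several and 1442 none. The 160 control spots were left out, probes of one gene were averaged, and features with a value on all 3 arrays were tested. The mean ratio was tested against 0 with limma (version 3.58.1, R 4.3.3; lmFit and eBayes, two-sided, Benjamini-Hochberg over all 10183 features, a minimum of 1.5-fold). Each array is a separate experiment per the labels, and the sources do not say how the embryo pools were formed, so p-values measure the spread between these arrays. The script was tested on simulated data. Members, lists and tests were chosen with earlier results of these data known. Genes named with full values were called members, members changed by at least 1.5-fold, the 8 further ones with the smallest adjusted p, RpL32, the RpL10A paralog pair and genes whose probes differ in sign; array values of other members, printed to show their spread, were chosen after they were seen. For comparison lists they were called genes or the 2 with the smallest p. CG9752, CG13531, inaD, S6k, bic, Sec61alpha, Sec61gamma and the elongation factors were chosen after their values were seen. Alternatives were each probe alone, values on at least 2 arrays, centred or scaled arrays, array weights, robust variances, other thresholds, the opposite sign, shared probes and leaving out each array.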

Additional observations from a re-analysis of the deposited data

How the results depend on the processing

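None of the 34 members that did not pass was called in any of the 14 other settings, where their smallest limma adjusted p was 0.0716. The setting at an adjusted p under 0.10 kept the minimum of 1.5-fold. RpL29, with a limma adjusted p of 0.0904 and a 1.21-fold change, missed a call there by the minimum fold alone. The call of RpL23 depended on the settings. No member was called, 0 lower and 0 higher, with arrays scaled to the same spread (RpL23 at -1.11), in the test against a 1.5-fold change (-1.10) or when an array was left out (0 to 0 members called lower, with RpL23 between -1.14 and -1.04). In these settings 0 of all features were called in limma, although 2552, 118, and 1473 to 2446 features had an unadjusted p under 0.05, as had 4, 1 and 2 to 4 members. With the opposite sign, 1 member would be higher and 0 lower, and RpL23 would have 1.10. In the remaining settings 1 member, RpL23, was lower; over all features 171 lower and 66 higher calls became 322 and 88 without a minimum fold and 204 and 115 at an adjusted p under 0.10. The median of the family stayed within 0.0399, the SD of its array medians, in each setting run for it, including without paralogs and assembly factors (-0.01) and without RpL23 (0.0027), which was added after seeing the data. Each ratio already paired the 2 conditions of an experiment, so the test against 0 was itself paired, and no further replicate block could be fitted with 1 group of arrays.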
